A study of Rattus norvegicus with 44 samples.

Results

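The older rats treated with dasatinib plus quercetin (ADQ, n = 11) were compared with young rats that received vehicle (YNG, n = 10), to describe what still differed from young in the dentate gyrus after the treatment. These 21 rats were taken from 44 by the treatment named for each rat in the authors' table of sample attributes. The dentate gyrus is the entry region of the hippocampus, and its main cells are granule neurons, which receive input from the entorhinal cortex and send mossy fibers to CA3. In aged brain, complement components, immunoglobulin Fc receptors and major histocompatibility complex (MHC) genes are known to rise, mostly through microglia and astrocytes. Dasatinib, an inhibitor of SRC, ABL and ephrin receptor kinases, and quercetin, a plant flavonoid, are given together as a senolytic, a treatment meant to remove senescent cells, which have left the cell cycle for good and secrete inflammatory factors.

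All rats were male F344. ADQ rats were 12 months old when treatment began and about 18 months old at tissue collection, while YNG rats were 6 months old. Dasatinib at 1.2 mg/kg and quercetin at 12 mg/kg were given by oral gavage on 5 consecutive days in each of 8 cycles, with a last round after the behavioral tests. Older vehicle rats (AV, n = 12) are given beside the results, and since they share the YNG rats, the AV and ADQ differences from YNG are not independent of each other. Age and treatment cannot be told apart when ADQ is compared with YNG. Each library held RNA of 1 hemisphere of 1 rat.

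Values are the authors' normalized counts, which are reads divided by a size factor of the library, and differences are in log2(value + 1). The estimated depth was 10166691 to 24329811 reads in YNG rats and 12850143 to 21349678 in ADQ rats. By rat number, the animals fall into series a (6 YNG and 5 ADQ rats) and series b (4 YNG and 6 ADQ rats). The series differ in the share of reads on the clone-named gene AABR07000398.1, with medians of 0.866% and 8.32% in YNG. In ADQ the medians were 0.965% and 2.57%, so YNG and ADQ also differed within series b. The labels name no batch, so the series are used here only as a split to check results within. The granule cell markers Prox1, C1ql2 and Dsp were present in every rat, and none passed the threshold between ADQ and YNG (limma adjusted p = 0.51, 0.18 and 0.38). Of all 10 tested granule cell markers 2 were called, C1ql3 and Calb1, both lower in ADQ (-0.71 and -0.47). This was 20% of the markers, beside 3.96% of all genes called lower. The summed level of the CA1 markers ran from 2681 to 18259 in YNG and from 2743 to 12145 in ADQ, and the part of this neighboring field in the results was not tested.

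The YNG rats were not uniform. The mean log2 level of 71 ribosomal protein genes lay between 9.90 and 10.44 in the ADQ rats, whereas it ranged from 9.57 to 11.40 in YNG (SD 0.16 and 0.61). In 7 of 10 YNG rats the level was above every ADQ rat, in 2 it was inside the ADQ range and in 1 (V11) it was below. Rats with a high level also had a high sum of normalized counts, as the plot of ribosomal level against library sum shows. The results were therefore also computed without each rat in turn and with the log2 library sum as a covariate. That sum is made of the same normalized counts, and its median was 16660960 in YNG and 15376067 in ADQ. The covariate can thus take out part of a group difference.

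**Figure D1:**
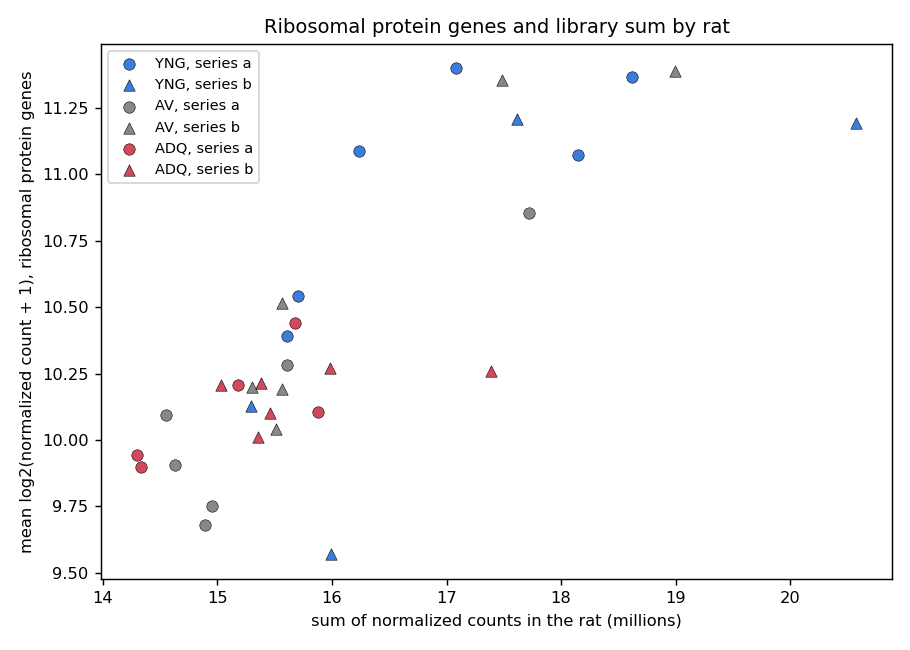
Mean log2(normalized count + 1) of 71 ribosomal protein genes in each rat (y axis) against the sum of the rat's normalized counts (x axis), for YNG, AV and ADQ. Circles are series a and triangles series b. ADQ rats lie between 9.90 and 10.44, while YNG rats spread from 9.57 to 11.40.

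Of 15598 genes tested, 1104 passed an adjusted p of 0.05 in ADQ against YNG (7.08%), and these are named called genes. Among them, 487 rose (3.12%) and 617 fell (3.96%), with a median difference of all genes of 0.01. At an unadjusted p of 0.05, 4386 genes passed (28.1%). AV against YNG had 367 called genes (2.35%), of which 283 were higher (1.81%) and 84 lower (0.539%). Between ADQ and AV, limma called 0 genes, the smallest adjusted p was 0.13, and 1454 genes passed the unadjusted threshold (9.32%). A gene called against YNG in ADQ and not in AV is therefore not shown to differ between ADQ and AV. Because the tissue is bulk, fewer cells of a type and less RNA per cell cannot be told apart in any of these differences.

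The number of called genes depended on single rats. It was 104 without V1, 131 without V2, 418 without V3, 439 without V4, 316 without V9 and 310 without V12, and it was 2327 without V10 and 2726 without V11, all of these YNG rats. Without the ADQ rats 4006, 4007 and 4074 it was 461, 468 and 557, and without 4106 it was 1703. The library sum as a covariate left 19 called genes (0.122%). A set of 96 genes (0.615%) was called in all 21 fits without 1 rat, 48 higher and 48 lower, and 14 of these (11 higher, 0.0705%, and 3 lower, 0.0192%, together 0.0898% of the genes tested) were also called with the covariate.

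**Figure D2:**
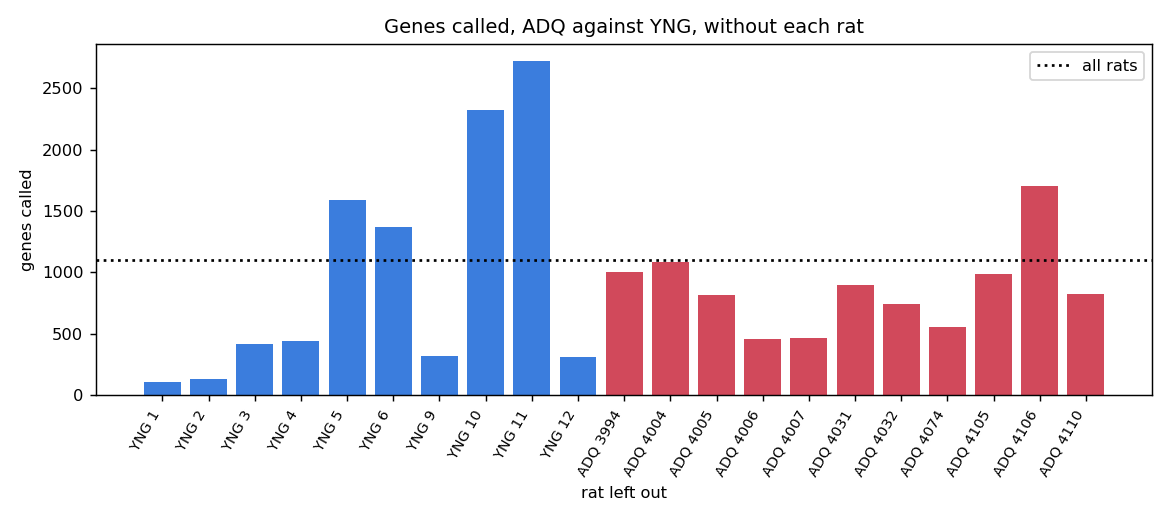
Genes called in ADQ against YNG (y axis) after leaving out the rat named on the x axis. The dotted line marks the 1104 genes called with all rats, and the bars run from 104 without YNG rat V1 to 2726 without YNG rat V11.

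The 14 genes called in all of these fits were picked after their values were seen, and Cdh1, Col18a1, Fcgr2b and Slc35d3 among them were also on the list of genes to be named. Cdh1, which encodes E-cadherin, an adhesion protein of epithelia, had 0, 3.21 and 21.4 normalized counts as lowest, median and highest value in YNG and 8.80, 28.9 and 39.6 in ADQ. The ADQ level was above every YNG rat in 9 of 11 rats, and the groups overlapped through the others. The difference was 2.74 ± 0.38 (SE, adjusted p = 2.1e-05), or 6.70-fold, with 3.25 in AV, and it was 2.77 in series a and 2.56 in series b. Cyp2a1, a cytochrome P450, ran from 1.5 to 9.79 in YNG (median 4.23) and from 13.1 to 28.9 in ADQ (median 17.9), so that no ADQ rat overlapped with YNG (2.01 ± 0.26, adjusted p = 4.6e-06). The clone-named gene AABR07001734.1 showed the largest rise of the comparison, from a median of 3.38 (0 to 8.28) in YNG to 54.7 (23.6 to 70.4) in ADQ, again without overlap (3.69 ± 0.31, adjusted p = 1.8e-11). Its difference in AV was 3.65, and the interval of ADQ minus AV ran from -0.56 to 0.63.

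Col18a1, which encodes the basement membrane collagen that is cleaved to endostatin, had 275, 340 and 388 normalized counts in YNG (lowest, median, highest) and 568, 654 and 747 in ADQ. Every ADQ rat was above every YNG rat, and the difference was 0.95 ± 0.14 (adjusted p = 8.9e-05), with 0.91 in AV. Pcdhb5, a clustered protocadherin that takes part in recognition between neurites, also separated the groups, with 207, 240 and 310 in YNG and 332, 358 and 461 in ADQ (0.56 ± 0.08, adjusted p = 8.9e-05). Fcgr2b, the inhibitory Fc gamma receptor of microglia and other myeloid cells, was 40, 67.6 and 96.1 in YNG and 89.4, 118 and 144 in ADQ. It was above every YNG rat in 10 of 11 ADQ rats (0.77 ± 0.16, adjusted p = 0.0077). Lilrb2, another inhibitory immune receptor, was low in both groups, with a median of 4.50 in YNG and 15.5 in ADQ (1.33 ± 0.24, adjusted p = 0.0021).

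Further rises of this set were smaller or at low levels. Tle4, a Groucho corepressor, rose by 0.34 ± 0.06 (medians 1037 and 1343). Anxa4, a calcium-dependent phospholipid-binding protein, rose by 0.52 ± 0.12 (medians 176 and 252). Cdhr5, a cadherin family member of the brush border, rose from a median of 5.93 to 15.8 (1.04 ± 0.21, adjusted p = 0.0062).

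The 3 falls of the set were Slc35d3, Ccdc80 and Pak6. Slc35d3, a member of the nucleotide sugar transporter family, had 33.8, 62.6 and 85.6 normalized counts in YNG (lowest, median, highest) and 11.2, 23.8 and 44.6 in ADQ. It was below every YNG rat in 9 of 11 ADQ rats and fell by 1.29 on the log2 scale (SE 0.21, adjusted p = 0.00076), with -1.29 in AV too. Ccdc80, a secreted matrix protein, was 221, 257 and 348 in YNG and 139, 164 and 236 in ADQ (-0.65 ± 0.11, adjusted p = 0.00076), while its AV difference was -0.33 (adjusted p = 0.085). Pak6, a p21-activated kinase, fell from a median of 1798 to 1433 (-0.35 ± 0.07, adjusted p = 0.0056).

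**Figure D3:**
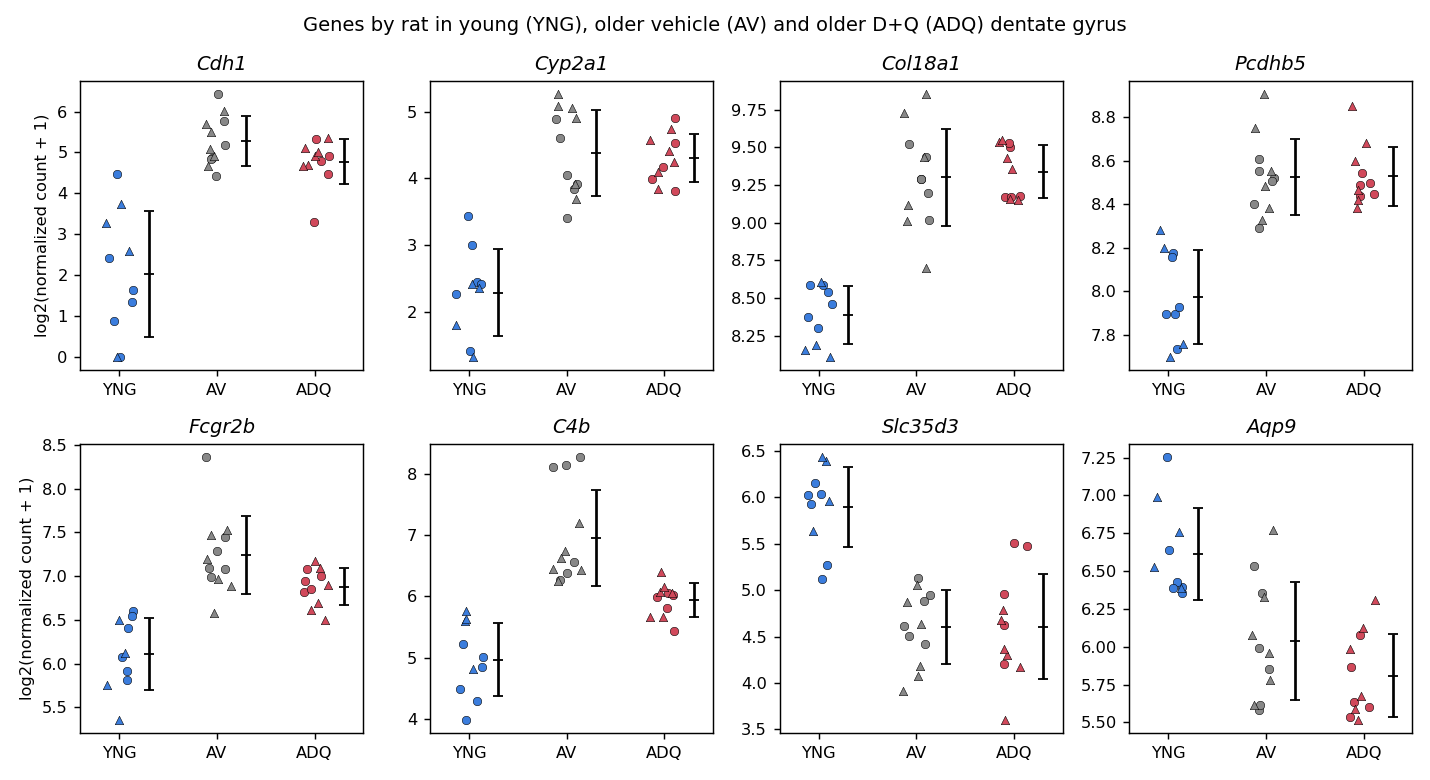
log2(normalized count + 1) of 8 genes in each YNG, AV and ADQ rat, with the mean ± SD at the right of each group, circles for series a and triangles for series b. Col18a1, Cyp2a1, Pcdhb5 and Aqp9 do not overlap between YNG and ADQ, and C4b lies higher in AV (median 95.5 normalized counts) than in ADQ (median 64.2).

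In 10 genes (0.0641%) the 11 ADQ and 10 YNG rats did not overlap, and these were identified after the values were seen. Besides AABR07001734.1, Cyp2a1, Col18a1 and Pcdhb5, the higher ones were Cep126 (median 145 in YNG and 198 in ADQ), Polr2a, the large subunit of RNA polymerase II (1516 and 1763), and LOC103689965 (425 and 695). The lower ones were Aqp9, Sncaip and Rabepk. Aqp9, a channel for water, glycerol and lactate, was 81.0, 88.1 and 152 in YNG and 44.8, 50.0 and 78.4 in ADQ (-0.80 ± 0.14, adjusted p = 0.0010). Sncaip encodes synphilin, a partner of alpha-synuclein, and fell from a median of 127 to 94.5 (-0.48 ± 0.11), with -0.24 in AV (adjusted p = 0.18).

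Among symbols with a mean of at least 20, the 10 largest rises were Cdh1, 7SK, Dnah12, Pla2g3, Slc18a1, Slc9a3, C4b, Runx2, Prss35 and Col18a1. Pla2g3, a secreted phospholipase, ran from 4.34 to 33.8 in YNG and from 15 to 43 in ADQ, and the groups overlapped (1.13 ± 0.26, adjusted p = 0.017). Prss35, a serine protease-like secreted protein, had medians of 89.7 and 184 (0.96 ± 0.19, adjusted p = 0.0062), and 8 of 11 ADQ rats were above every YNG rat. Both were called in all 21 fits without 1 rat, but not with the library sum as a covariate (limma adjusted p = 0.37 and 0.18). Runx2, a transcription factor known from bone, was at 0.97 ± 0.26, and Slc18a1, a vesicular monoamine transporter, at 1.02 ± 0.30, called in 17 and 14 of the 21 fits. Dnah12, a dynein of motile cilia, and Slc9a3, a sodium-proton exchanger, were called in 7 and 8 of them. The symbol 7SK stands for several identifiers, as do Faim and Rps10 below, and reads of such copies may be divided among them.

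The 10 largest falls were Rps21, Slc35d3, Usp51, Rps24, Rps23, Faim, Rps10, Rplp0l1, Rpl34 and Tm2d3, so most were ribosomal. A further 29 clone-named genes fell at least as far, of which 10 were clones of mitochondrial DNA. The 3 called falls with the highest level were Mt-nd1 and the mitochondrial clones AY172581.9 and AY172581.24. The 3 called rises with the highest level were Zwint, Ywhag and App. App, the amyloid precursor protein, was 16730, 18831 and 20456 in YNG and 19551, 22518 and 23330 in ADQ. It rose by 0.22 ± 0.06 (adjusted p = 0.026), with 9 of 11 ADQ rats above every YNG rat. Ywhag, a 14-3-3 adaptor, rose by 0.60 ± 0.14 and Zwint by 0.27 ± 0.08.

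Genes of protein synthesis made up the largest block of falls. Of 71 ribosomal protein genes tested, 32 fell and 0 rose, beside 3.96% and 3.12% of all genes, and the median difference of the list was -0.65, with -0.44 in AV, where 0 members were called by limma at the adjusted threshold. Rpl34, a protein of the large subunit, had 546, 1457 and 2154 normalized counts in YNG (lowest, median, highest) and 402, 592 and 846 in ADQ (-1.06 ± 0.24, adjusted p = 0.016). Rpl3, also of the large subunit, had medians of 15500 and 7149 (-0.80 ± 0.20), and Rps21, of the small subunit, had 145 and 39.2 (-1.48 ± 0.37). In Rpl34 only 3 of 11 ADQ rats were below every YNG rat, and in Rps21 1 of 11. The list's count was 1 without V1, 1 without V2, 12 without V3, 12 without V4, 8 without V9, 8 without V12, 14 without each of the ADQ rats 4006, 4007 and 4074, 55 without V10 and 62 without V11. It was 0 with the library sum as a covariate, where the median was -0.19. Ribosomal protein genes have many processed copies in the genome, and reads may be divided among these.

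Many messenger RNAs of ribosomal proteins begin with a run of pyrimidines at the start site, through which growth signals control their translation. The 30 bases around the RefSeq start site (15 on each side, build GRCr8) are shown for the 3 members with the smallest p that had a sequence and for Rps21, the member that fell furthest. The longest run of C and T that touches the 10 bases around the start site is in capitals.
Rpl34, chr2:221962269-221962298, minus strand: CCCCTTCCTTTTCCTCTTCCggggacggtg
Rpl3, chr7:113507976-113508005, minus strand: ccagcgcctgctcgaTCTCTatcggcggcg
Rpl41, chr7:1563483-1563512, minus strand: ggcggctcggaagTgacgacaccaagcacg
Rps21, chr3:187724023-187724052, plus strand: gaacgagccaCTTCCTTTCTgtgttctccg
The run is at least 8 bases long in Rpl34 and Rps21 and shorter in the other two. Of the 57 tested ribosomal protein genes with a sequence, 35 had such a run of at least 8 bases (61.4%), read on the gene's strand, beside 8.65% of all 27457 start sites. An annotated start can be off by several bases, so a short run here says only that these letters were not found in this window.

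The other lists of protein synthesis and turnover lay in the same direction with fewer calls. Translation factors had 27.9% called lower, proteasome genes 18.8% and mitochondrial ribosomal proteins 5.71%, beside 3.96% of all genes. Of 43 translation initiation and elongation factors 12 fell and 0 rose (median -0.30), among them Eef2, the elongation factor that moves the ribosome along the messenger (-0.44 ± 0.11, medians 36689 and 25919), and the initiation factor subunit Eif3i (-0.63 ± 0.15). Of 32 proteasome genes 6 fell and 0 rose (median -0.25), with Psmd4, a ubiquitin receptor of the proteasome, at -0.47 ± 0.13. Of 70 mitochondrial ribosomal protein genes 4 fell and 1 rose. The riser, Mrpl51, went against the list with 264, 376 and 510 in YNG and 461, 547 and 583 in ADQ (0.48 ± 0.10, adjusted p = 0.0056). It was called in all 21 fits without 1 rat, but not with the library sum as a covariate (limma adjusted p = 0.23). Leaving out single rats took the count of falls in each of the other lists of this kind, the respiratory chain included, down to 0.

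Of 69 nuclear genes of the respiratory chain and ATP synthase 6 fell and 0 rose (median -0.35, with -0.31 in AV), and Ndufb10, a subunit of complex I, was at -0.57 ± 0.16 with medians of 2783 and 1705. Of the 13 respiratory chain genes encoded in mitochondrial DNA, 2 fell, with a median of -0.61. The falls were 8.70% of the nuclear and 15.4% of the mitochondrial list, beside 3.96% of all genes. Mt-nd3 ran from 6653 to 40020 in YNG and from 6147 to 13766 in ADQ (-1.02 ± 0.28, adjusted p = 0.027), so the ADQ range lay mostly inside the wide YNG range. With the library sum as a covariate the medians of these lists were -0.06 and -0.09. Their within-series medians were -0.56 and -0.57 in series a and -0.14 and -0.52 in series b.

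**Figure D4:**
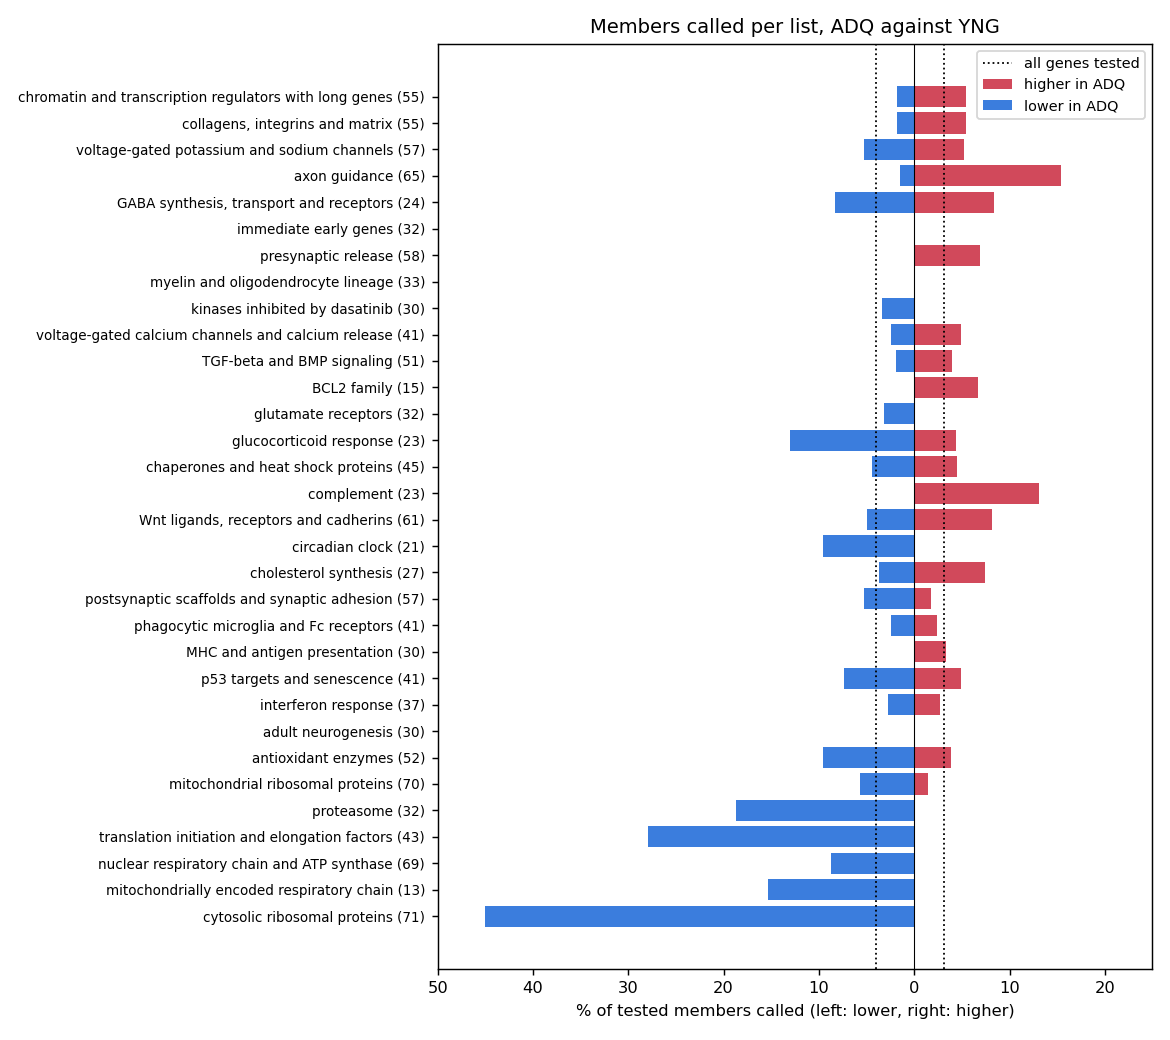
Percentage of the tested members of each gene list that were called lower (left) or higher (right) in ADQ than in YNG, with the number tested in brackets and the lists ordered by median difference. Dotted lines mark all genes tested (3.96% lower and 3.12% higher). Ribosomal protein genes reach furthest to the left and axon guidance genes furthest to the right.

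Axon guidance and presynaptic release genes held more rises than falls. Of 65 axon guidance genes 10 rose and 1 fell (15.4% and 1.54%, beside 3.12% and 3.96% of all genes). The list's median difference was 0.13, and -0.0021 with the library sum as a covariate. The called genes are Sema3e, Sema3g, Sema4c, Plxna1, Plxna2, Plxnc1, Nrp1, Robo1, Robo2 and Unc5c, ligands and receptors that attract or repel growing axons, against the ephrin ligand Efnb3. Sema3e, a secreted semaphorin, had 95.3, 155 and 316 in YNG and 189, 289 and 404 in ADQ (0.76 ± 0.19, adjusted p = 0.019), with 0.33 in AV. Efnb3 had medians of 4893 and 3108 (-0.59 ± 0.14). The count of rises in this list ranged from 0 to 12 over the fits without 1 rat.

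Of 58 genes of presynaptic release 4 rose and 0 fell (6.90% and 0%, beside 3.12% and 3.96% of all genes). The list's median was 0.11, with -0.02 in AV. Syt1, the calcium sensor of fast vesicle fusion, was 10172, 12336 and 14601 in YNG and 13442, 15721 and 18713 in ADQ, with 9 of 11 ADQ rats above every YNG rat. It rose by 0.32 ± 0.08 (adjusted p = 0.018), with 0.28 in series a and 0.38 in series b. Syt1 was called in all 21 fits without 1 rat, but not with the library sum as a covariate (limma adjusted p = 0.13). The active zone scaffolds Rims1 (0.53 ± 0.13) and Pclo (0.61 ± 0.16) and the syntaxin-binding Stxbp5 also rose. The AV difference was 0.17 for Syt1 (adjusted p = 0.19) and 0.21 for Rims1 (adjusted p = 0.32).

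Ion channel and transmitter lists held few calls. Of 57 potassium and sodium channel genes 3 rose and 3 fell (5.26% each way, near the 3.12% and 3.96% of all genes). Scn4b, a sodium channel beta subunit, had 341, 488 and 739 in YNG and 703, 778 and 880 in ADQ (0.67 ± 0.14, adjusted p = 0.011), and Kcnc2, a Kv3 channel of fast-spiking interneurons, had 351, 495 and 597 and 593, 641 and 865 (0.49 ± 0.11, adjusted p = 0.014). Both were called in all 21 fits without 1 rat, but not with the library sum as a covariate (limma adjusted p = 0.29 and 0.18). Kcnh3 fell (-0.38 ± 0.09). Of 24 GABA genes Gad2, which makes GABA, and the receptor subunit Gabra3 rose, whereas Gabrd and Gabbr1 fell (8.33% each way, above the shares of all genes). Of 32 glutamate receptor genes 1 fell, the auxiliary subunit Cacng4, and 0 rose (3.1% lower, beside 3.96% of all genes).

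In the calcium list of 41 genes 4.88% rose and 2.44% fell, beside 3.12% and 3.96% of all genes. Ryr2 and Ryr3, the channels that release calcium from the endoplasmic reticulum, rose (Ryr3 0.66 ± 0.17, Ryr2 0.61 ± 0.19). Calb1, a calcium buffer of granule cells, fell from a median of 1022 to 738 (-0.47 ± 0.15, adjusted p = 0.045). C1ql3, a secreted synaptic organizer, fell from 2157 to 1250 (-0.71 ± 0.18, adjusted p = 0.021). These were the 2 called members of 10 tested granule cell markers, and their AV differences were -0.62 and -0.67. The summed granule cell marker level was 12783 to 18337 in YNG and 12518 to 16469 in ADQ, and its part in these falls was not tested. Interneuron markers summed to 9015 to 11137 in YNG and 9657 to 12429 in ADQ. Gad2 was the 1 called of 11, and it was higher (9.09%, beside 3.12% of all genes). The part of interneurons in the rises of Gad2 and Kcnc2 was not tested.

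C3 and both C4 genes remained above young. Of 23 tested, C3, C4a and C4b rose (3 of 23, beside 3.12% of all genes) and 0 fell, with a list median of 0.01. C4b, a component of the classical pathway that tags synapses and debris, had 14.9, 29.6 and 53.2 normalized counts in YNG (lowest, median, highest) and 42.1, 64.2 and 83.6 in ADQ, and 8 of 11 ADQ rats were above every YNG rat. Its difference was 0.98 ± 0.23 (adjusted p = 0.017), or 1.97-fold, beside 1.99 in AV. ADQ minus AV was -1.01 (95% interval -1.46 to -0.56, adjusted p = 0.13), which did not pass the threshold. C4a was at 0.95 ± 0.27 (AV 1.72) and C3, the central component, at 0.68 ± 0.19 (AV 1.12), with medians of 419 and 732. C4a and C4b are near-identical copies, so reads may be shared between them, and the 3 genes were called in 15 to 20 of the 21 fits without 1 rat. With the library sum as a covariate C3, C4a and C4b were at 0.69, 0.72 and 1.08. None of them was called in that fit (limma adjusted p = 0.28, 0.51 and 0.10).

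Other immune lists had few calls in ADQ. The MHC list had 3.33% higher and 0% lower and the interferon list 2.70% each way. Of all genes 3.12% were higher and 3.96% lower. Of 30 MHC and antigen presentation genes 1 rose, Tap2, which pumps peptides into the endoplasmic reticulum (0.43 ± 0.11, adjusted p = 0.024, AV 0.46). The list median was -0.04 (0.09 with the library sum as a covariate) beside 0.33 in AV. In AV against YNG 9 of the 30 were called higher, beside 1.81% of all genes in that comparison. The MHC class II gene RT1-Da was 6.32, 10.6 and 24 in YNG and 18.4, 29.1 and 51.5 in ADQ, a difference of 1.39 ± 0.49 that did not pass the adjusted threshold (p = 0.065), beside 2.42 in AV. Of 37 interferon response genes Ifit2 rose (0.46 ± 0.14) and Gbp5 fell. Gbp5, a guanylate-binding protein induced by interferon gamma, was 24.9, 44.9 and 60.4 in YNG and 13.4, 25 and 38 in ADQ (-0.73 ± 0.24, adjusted p = 0.049), while AV was at 0.04. Gbp5 was called in only 5 of the 21 fits without 1 rat.

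Of 41 genes of phagocytic microglia and Fc receptors Fcgr2b rose and Apoe, the main lipid carrier of the brain, fell (-0.52 ± 0.16, medians 48480 and 33898). The calls were 2.44% each way, beside 3.12% higher and 3.96% lower of all genes. The list median was -0.03 (0.12 with the library sum as a covariate) beside 0.38 in AV. Of 12 astrocyte markers 2 were called lower (16.7%, beside 3.96% of all genes), Aldoc (-0.42 ± 0.13) and Gjb6 (-0.37 ± 0.12). The summed level of the 12 was 68319 to 107091 in YNG and 75163 to 93632 in ADQ. The part of astrocytes in the falls of Apoe, Bcan, Mt1 and Mt3 was not tested. ADQ minus AV for Fcgr2b was -0.36 (interval -0.66 to -0.05, adjusted p = 0.46). Homeostatic microglia markers summed to 4048 to 6937 in YNG and 4628 to 5797 in ADQ. Of 11 tested, 1 was called, Sall1, which was higher (0.46, or 9.09% beside 3.12% of all genes). The median of these markers was -0.14. T and NK cell markers summed to 104 to 273 in YNG and 141 to 253 in ADQ. Limma called 0 of 9 at the adjusted and 0 at the unadjusted threshold, which 7.08% and 28.1% of all genes passed. Among the T and NK cell markers, 6 of 13 had a median of 0, Cd8a and Gzmb among them. The part of these cells in the immune differences was not tested.

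Of 41 tested genes of the p53 and senescence list Mdm2 and Pmaip1 rose and Cdkn1c, Ccnd1 and Igfbp2 fell (4.88% and 7.32%, beside 3.12% and 3.96% of all genes). Ccnd1, the cyclin that drives entry into S phase, had 412, 476 and 665 in YNG and 305, 353 and 458 in ADQ, with 10 of 11 ADQ rats below every YNG rat. It fell by 0.52 on the log2 scale (SE 0.12, adjusted p = 0.014). Ccnd1 was called in all 21 fits without 1 rat, but not with the library sum as a covariate (limma adjusted p = 0.26). Its AV difference was -0.12 (adjusted p = 0.55). ADQ minus AV was -0.40 (interval -0.62 to -0.17, adjusted p = 0.20). Igfbp2, a binding protein of insulin-like growth factors, was at -0.77 ± 0.18. Cdkn1a, which encodes p21, had medians of 56.0 and 76.8 (0.34 ± 0.25, adjusted p = 0.37), and Cdkn2a and Il6 were below the minimum level.

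Pmaip1, a pro-apoptotic BH3-only protein, was the 1 gene called of 15 in the BCL2 family (0.81 ± 0.25, AV 1.24), and it was 1.28 in series a and 0.19 in series b. Of 30 kinases that dasatinib inhibits, Csk, the kinase that restrains SRC, fell (-0.28 ± 0.09, adjusted p = 0.042) and 0 rose. Csk was called in 8 of the 21 fits without 1 rat. The calls were 6.67% higher in the BCL2 family and 3.33% lower among the kinases, beside 3.12% and 3.96% of all genes.

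No gene of the TGF-beta and barrier panel passed the threshold. Tgfb1, the ligand, had 128, 204 and 351 in YNG and 131, 189 and 314 in ADQ (-0.11 ± 0.18, adjusted p = 0.71), and the ADQ range lay inside the YNG range. Cldn5, the claudin of brain endothelium, was at 0.03 ± 0.21, the endothelial co-receptor Eng at 0.24 ± 0.16 and the target Id1 at 0.22 ± 0.17, none called, beside 0.65, 0.66 and 0.80 in AV. Acvrl1, an endothelial type I receptor, was at 0.50 ± 0.20 (adjusted p = 0.10), with 0.94 in series a and -0.10 in series b. Endothelial markers summed to 2670 to 6736 in YNG and 4078 to 5406 in ADQ, and their part was not tested. Of the 51 genes of the pathway list the receptors Acvr1 (0.58 ± 0.14) and Tgfbr3 (0.40 ± 0.11) rose and the ligand Gdf11 fell (-0.25 ± 0.07, medians 728 and 615). The calls were 3.92% higher and 1.96% lower, beside 3.12% and 3.96% of all genes.

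Wnt and cadherin genes held 5 rises and 3 falls among 61 (8.20% and 4.92%, beside 3.12% and 3.96% of all genes). The ligand Wnt7b fell from a median of 1775 to 1148 (-0.57 ± 0.12, adjusted p = 0.0096). It was called in all 21 fits without 1 rat, but not with the library sum as a covariate (limma adjusted p = 0.30). Wnt16 fell from 50.2 to 31.5 (-0.80 ± 0.23, AV -1.29). The receptor Fzd2 fell by 0.57 on the log2 scale, while its AV difference was -0.19. Of 55 collagen, integrin and matrix genes Col18a1, Col5a2 and Col12a1 rose (5.45%). Bcan, which encodes the proteoglycan brevican of perineuronal nets, fell (1.82%, -0.52 ± 0.12, medians 9922 and 6652).

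Clock, glucocorticoid, antioxidant and cholesterol lists had few members called, but most of their shares were above those of all genes. Falls were 9.52% of clock, 3 of 23 glucocorticoid, 9.62% of antioxidant and 3.70% of cholesterol genes, beside 3.96% of all genes. Rises were 0%, 4.35%, 3.85% and 7.41% in the same order, beside 3.12% of all genes. Dbp, a transcription factor of the clock's output, was 1349, 2078 and 2539 in YNG and 974, 1190 and 1676 in ADQ (-0.56 ± 0.12, adjusted p = 0.012, AV -0.25), and Nr1d1, a clock repressor, was at -0.37 ± 0.10. These were 2 of 21 clock genes, and the time of day of tissue collection is not given by the labels. Dbp was called in all 21 fits without 1 rat, but not with the library sum as a covariate (limma adjusted p = 0.37). Of 23 glucocorticoid response genes Sgk1 rose (0.77 ± 0.19) and Klf9, Mt1 and Hsd11b1, which regenerates active corticosterone, fell. Mt1, a metallothionein, was at -0.81 ± 0.24 beside -0.06 in AV. Of 52 antioxidant genes 2 rose, Txnrd1 and Msrb3, and 5 fell, Sod1, Txn2, Gstm7, Mt1 and Mt3. Srebf2, the master regulator of cholesterol synthesis, had 3057, 5117 and 6335 in YNG and 5503, 6474 and 8000 in ADQ (0.48 ± 0.11, adjusted p = 0.017) and its target Hmgcs1 was at 0.28 ± 0.08, 2 rises of 27 genes beside 1 fall, Tm7sf2.

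In 3 lists limma called no member at the adjusted threshold. Adult neurogenesis had 3 of 30 genes past an unadjusted p of 0.05 and a median of -0.13, immediate early genes 2 of 32 and 0.11, and myelin and oligodendrocyte genes 5 of 33 and 0.10. Of all genes 28.1% passed that threshold, a larger share than in any of these 3 lists. Oligodendrocyte markers summed to 47376 to 128611 in YNG and 66306 to 84672 in ADQ. Of 55 chromatin regulators with long genes Kmt2c, Setd5 and Baz2b rose and Smarca4 fell (5.45% and 1.82%, beside 3.12% and 3.96% of all genes). Their median difference was 0.21, and -0.02 with the library sum as a covariate. Of 45 chaperones Hspa4 and Hspa9 rose and Cct5 and Trap1 fell. Of 57 postsynaptic genes the latrophilin Adgrl3 rose (0.46 ± 0.11) and Dlgap3, C1ql3 and Iqsec2 fell. The calls were 4.44% each way among chaperones, and 1.75% higher and 5.26% lower among postsynaptic genes.

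The direction of a difference went with the span of the gene on the chromosome. A span was found in RefSeq by symbol for 13730 of 15598 genes (88.0%), and the genes were ranked into 4 bins of equal number. In the bin of the shortest genes, up to 10.3 kb, the median difference was -0.11, with 40 genes called higher and 231 lower. These were 1.17% and 6.73% of the bin, beside 3.12% and 3.96% of all genes. In the bin of the longest genes, above 62.4 kb, the median difference was 0.11, with 214 called higher and 47 lower (6.23% and 1.37%). Across the bins the median ran from -0.18 to 0.16 in series a and from -0.01 to 0.04 in series b, and from -0.02 to 0.02 with the library sum as a covariate. AV ran from -0.07 to 0.06.

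**Figure D5:**
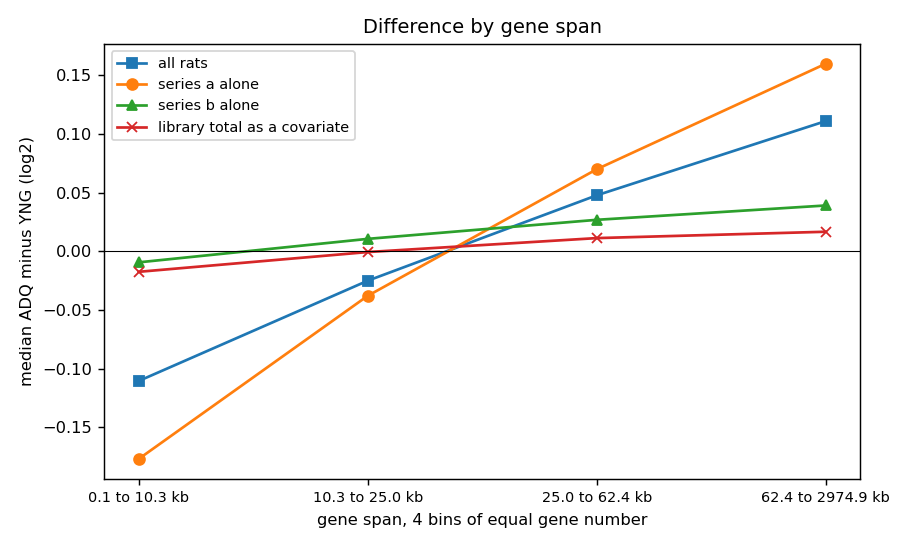
Median ADQ minus YNG difference in log2 (y axis) in 4 bins of the genes by span (x axis, kb), for all rats, within each series, and with the library sum as a covariate. The line of all rats rises from -0.11 to 0.11, that of series a from -0.18 to 0.16 and that of series b from -0.01 to 0.04.

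Within series a (6 YNG and 5 ADQ rats) 1603 genes were called (10.3%), and within series b (4 and 6 rats) 4 (0.0256%), where 1077 passed the unadjusted threshold. The series share no rats, so the genes called in series a were looked up in series b. Of the 589 called higher in series a, 503 had a difference above 0 in series b (85.4%, beside 53.2% of all genes), and 77 of these passed the unadjusted threshold in that direction (13.1%, beside 4.33% of all genes). Of the 1014 called lower, 863 were below 0 in series b (85.1%, beside 46.8% of all genes), and 48 passed (4.73%, beside 2.57%). Genes of 1 block such as the ribosomal one move together and are not independent. A test of the series by group interaction called 8 genes (0.0513%), with 1387 past the unadjusted threshold (8.89%).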

How the data were processed

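Libraries were made with poly(A)-selected RNA and sequenced on the Ion platform. Per the submitters' processing notes, STAR 2.5.3a, Partek and DESeq2 were used with build rn6, and the annotation is not given in the sources used here. The signal values deposited by the authors are reads per row divided by a median-ratio size factor per library. In libraries, 79.6% to 84.4% of low summed values (under 20 steps) were whole multiples of a step within 0.05 reads, so reads were not recovered for nearly all genes and no count model was used. Depth was estimated as the total divided by the step, and it sets counting error only.

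The table's 24694 rows were summed to 18347 genes, and genes with a mean of at least 5 (15598) were tested on log2(value + 1), with the pseudocount 1, in 1 fit of all 4 groups with limma 3.58.1 (trend) in R 4.3.3, two-sided, with Benjamini-Hochberg adjustment. Fold changes of low genes are understated on this scale. On simulated data, 88.5% of 200 genes changed by log2 1 were called in ADQ against YNG, and 8 unchanged ones. Whether these rates hold in the rats was not tested. There the ribosomal level spread more in YNG than in ADQ (SD 0.61 and 0.16). Tables were made with Python 3.11.15, pandas 2.3.3, numpy 2.4.6 and matplotlib 3.10.9. Older rats took their group from the authors' table of attributes. Each library came from 1 rat, so p-values measure the spread between rats.

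Named genes were, with a mean of at least 20, the 10 largest called rises and falls with a symbol, up to 3 members with the smallest p from each of 32 lists, a fixed panel of TGF-beta, barrier, senescence and immune genes, and the 3 called rises and falls with the highest mean. Other called members named beside a list's count were chosen after their values were seen, and further genes named outside this rule are said to be. The values of 1 gene are not reported here. Members, lists and rule were chosen with earlier results of these data known. A symbol on several identifiers stands for the one with the highest mean, except in the largest rises and falls. Start site sequences and gene spans come from RefSeq GRCr8. Alternatives were other pseudocounts, filters, scalings, covariates, weights, row choice, series alone, and each rat left out.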

Additional observations from a re-analysis of the deposited data

Results flagged for a closer look

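In the 10 YNG rats, 1 rat stood apart from the others in 7 of the 142 named genes looked at, by the gap to its nearest neighbor as a share of the range of log2 values. Chance marks about 1 in 20 groups, and 7 of 142 is near that share. The named genes were in part picked by their values, and some, such as the ribosomal ones, move together. The part of chance in these 7 was not tested. The lowest rat stood apart for C4a (V9, 21.3 normalized counts against a median of 65.5 in the others, gap share 0.565), Slc18a1 (V9, 2.5 against 19.9, 0.529), Rps21 (V11, 20.1 against 149, 0.503), Psmb7 (V11, 1245 against 2937, 0.487) and Zwint (V12, 21520 against 30546, 0.473). The highest rat stood apart for Opalin (V6, 1197 against 418, 0.544) and Pak6 (V6, 2080 against 1774, 0.50). Opalin, a myelin gene, was not called in ADQ against YNG.

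The ADQ minus YNG difference differed between the rat series in 8 genes by the interaction term of limma. The endothelial phosphatase gene Ptprb was at 1.56 in series a and -0.42 in series b (difference of the differences -1.98, adjusted p = 0.012), Prom1 at 0.91 and -0.58 (-1.49, adjusted p = 0.020) and Mrvi1 at 1.08 and -1.15 (-2.23, adjusted p = 0.038). The clone-named and LOC genes went the other way, with -3.47 and 0.14 for LOC103689931 (3.61), -3.76 and -0.53 for AABR07032255.1 (3.23), -2.80 and 0.26 for AABR07026997.1 (3.06), -1.78 and 0.80 for AABR07061825.2 (2.57), and -1.52 and 0.85 for AABR07044080.2 (2.37). These genes were picked by this test on the same rats.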

How the results depend on the processing

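No paired analysis was possible because YNG and ADQ rats share no replicate numbers. The 1104 called genes became 2253 with scaling to equal totals (1898 higher and 355 lower), which moved the median of all genes from 0.01 to 0.14, 1812 in a fit of ADQ and YNG alone, 1698 with series as a term, 7012 with array weights, 19 with the library sum as a covariate (15 higher and 4 lower) and 4 within series b (3 higher and 1 lower). Upper quartile scaling gave 1223, and other pseudocounts, filters and row choice 917 to 1205. Genes past the unadjusted threshold became 1161 with the library sum, 8101 with array weights and 1077 within series b. Calls within series a became 116 and within series b 9 with the library sum, and within series b 2 with a mean of at least 20. The 8 interaction genes became 5 with a pseudocount of 0.5. The 32 ribosomal falls became 0 with the library sum, 0 within series b and 67 with array weights. Without 1 rat, called genes ranged from 104 to 2726, genes past the unadjusted threshold from 3514 to 5262, calls within series a from 609 to 2344 (609, 715, 809 and 913 without V1 to V4, and 906, 671 and 680 without 4005, 4006 and 4007), within series b from 1 to 5, interaction genes from 2 (V4 or 4005) to 52 (V9), and ribosomal falls from 1 to 62. Of 115 called genes among those named, 115 stayed called with series as a term, 102 with scaling to equal totals, 86 within series a, 14 with the library sum and 3 within series b, and none changed sign in any setting. Many of the 115 were named because they were called in this comparison, and the 14 because they stayed called with the library sum. These counts are therefore no independent support. Uncalled values changed sign for Tgfb1 (0.026 with equal totals, 0.30 with the library sum), Cldn5 (-0.0053 with series as a term, -0.34 within series b, and -0.086 to 0.153 without 1 rat, below 0 without 4004, V4, V5 or V6), Eng (-0.069) and Acvrl1 (-0.10) within series b. The causes were not tested. Scaling to equal totals also put the medians of the MHC, interferon, phagocytic microglia, p53 and neurogenesis lists above 0. Depth is known only as an estimate, and 6 and 5 or 4 and 6 rats per series limit the within-series fits. The alternatives of the within-series and interaction counts were chosen after seeing the data.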
